A study of Homo sapiens with 4 samples.

Results

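The genes described here encode 9 enzymes that make serine and pass its carbon into the folate pool: PHGDH, PSAT1, PSPH, SHMT1, SHMT2, MTHFD1, MTHFD2, MTHFD1L and ALDH1L2. They were chosen by name from 60682 genes in the count table, all 9 were found under their symbols, and all 9 passed the filter on low counts that kept 14864 genes. Total RNA was sequenced from JJN3 cells carrying a short hairpin RNA against WNK1 (shWNK1, 2 libraries) and from JJN3 cells carrying the NS hairpin, the control (NS, 2 libraries); both hairpins were delivered by transduction. JJN3 is an established human multiple myeloma line, a cancer of plasma cells, and all 4 libraries come from that line. WNK1 is a kinase that regulates chloride cotransport. The labels name a single WNK1 hairpin treatment and leave unsaid if replicates were cultured or transduced separately. The p-values below therefore measure no more than the spread among these 4 libraries, which may be technical. In bulk RNA a change in every cell and a change in the share of cells that express a gene cannot be told apart.

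Serine is built from a glycolytic intermediate, phosphoglycerate, in 3 steps: PHGDH oxidises it, PSAT1 transfers an amino group from glutamate and PSPH removes the phosphate. SHMT1 in the cytosol and SHMT2 in mitochondria split serine into glycine and a carbon unit carried on folate. In mitochondria MTHFD2 and MTHFD1L carry that unit towards formate, ALDH1L2 releases it as carbon dioxide while making NADPH, and in the cytosol MTHFD1 takes formate back into folates for purine and thymidylate synthesis. Proliferating cells draw on the pathway for nucleotides, and several of its genes are known targets of ATF4, the transcription factor of the amino acid response.

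Library totals were 16973521 and 20164122 counts for shWNK1 and 17491537 and 17392619 counts for NS. The targeted gene, WNK1, had 325 and 403 counts under its own hairpin, against 4911 and 4148 counts under the NS hairpin, a log2 fold change of -3.80. Libraries of the same group differed less than libraries of different groups, with a chi-square per degree of freedom of 2.94 within shWNK1 and 5.76 within NS and of 36.3 to 42.7 between groups. All 8 plasma cell markers were detected, and their summed level was 1486 and 1517 CPM in shWNK1 cells and 1816 and 1764 CPM in NS cells (CPM, counts scaled to library size by TMM); 2 of them rose and 5 fell. SLAMF7 had 12.1 and 11.3 CPM in shWNK1 cells, against 1.35 and 1.65 CPM in NS cells (log2 fold change 2.96), and PRDM1 rose by 0.25 on the log2 scale. SDC1 fell to 86.7 ± 6.63 CPM, against 217 ± 11.5 CPM in NS cells (-1.32; mean ± SD, n = 2 each), and MZB1 (-0.98), CD38 (-0.60), IRF4 (-0.23) and XBP1 (-0.17) fell too. Of all tested genes 18.5% rose and 20.2% fell. The part of the plasma cell markers in the enzymes' changes was not tested. Markers of T and NK cells summed to at most 0.516 CPM in shWNK1 cells and 1.06 CPM in NS cells, with CD3D, CD3G and CD4 at 0, and those of myeloid cells to at most 0.487 and 1.17 CPM, with LYZ and MPO at 0. Of 6 mature B cell markers MS4A1, CD22 and FCER2 were at 0, and PAX5 fell to 2.99 ± 0.0997 CPM, against 7.27 ± 0.834 CPM in NS cells. Of 9 stromal and epithelial markers COL1A2, COL3A1, LUM and KRT19 were at 0, KRT18 fell to 8.03 ± 0.335 CPM, against 11.3 ± 0.937 CPM in NS cells, and EPCAM, not called, stood at 123 ± 3.93 CPM in shWNK1 cells and 114 ± 7.17 CPM in NS cells.

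The 9 enzymes did not move as a block. MTHFD2, MTHFD1, SHMT1 and SHMT2 fell in shWNK1 cells, ALDH1L2 and PSAT1 rose, and PHGDH, PSPH and MTHFD1L were not called (edgeR quasi-likelihood test, two-sided, called at a Benjamini-Hochberg adjusted p under 0.05 over all genes tested). These 6 calls among 9 stand against 38.8% of all tested genes called, 18.5% rising and 20.2% falling, and against 57.5% called among the 4324 genes counted at least as often as the least counted of the 9 (a mean of at least 990 counts), a share close to that of the 9. Of the 9, 0 were called with a change of at least 1.5-fold, where 14.9% of all tested genes were, genes of low count included. The size of their changes was ordinary for their depth. The median absolute log2 fold change was 0.209 for the 9 and 0.218 for those 4324 genes. The 2 groups of libraries did not overlap for 8 of the 9, PSPH being the exception, against 68.4% of tested genes: shWNK1 was above NS for 2 (34.7% of tested genes) and below it for 6 (33.7%). The median log2 fold change was -0.11 for the 9 and 0.01 for all genes tested.

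**Figure D1:**
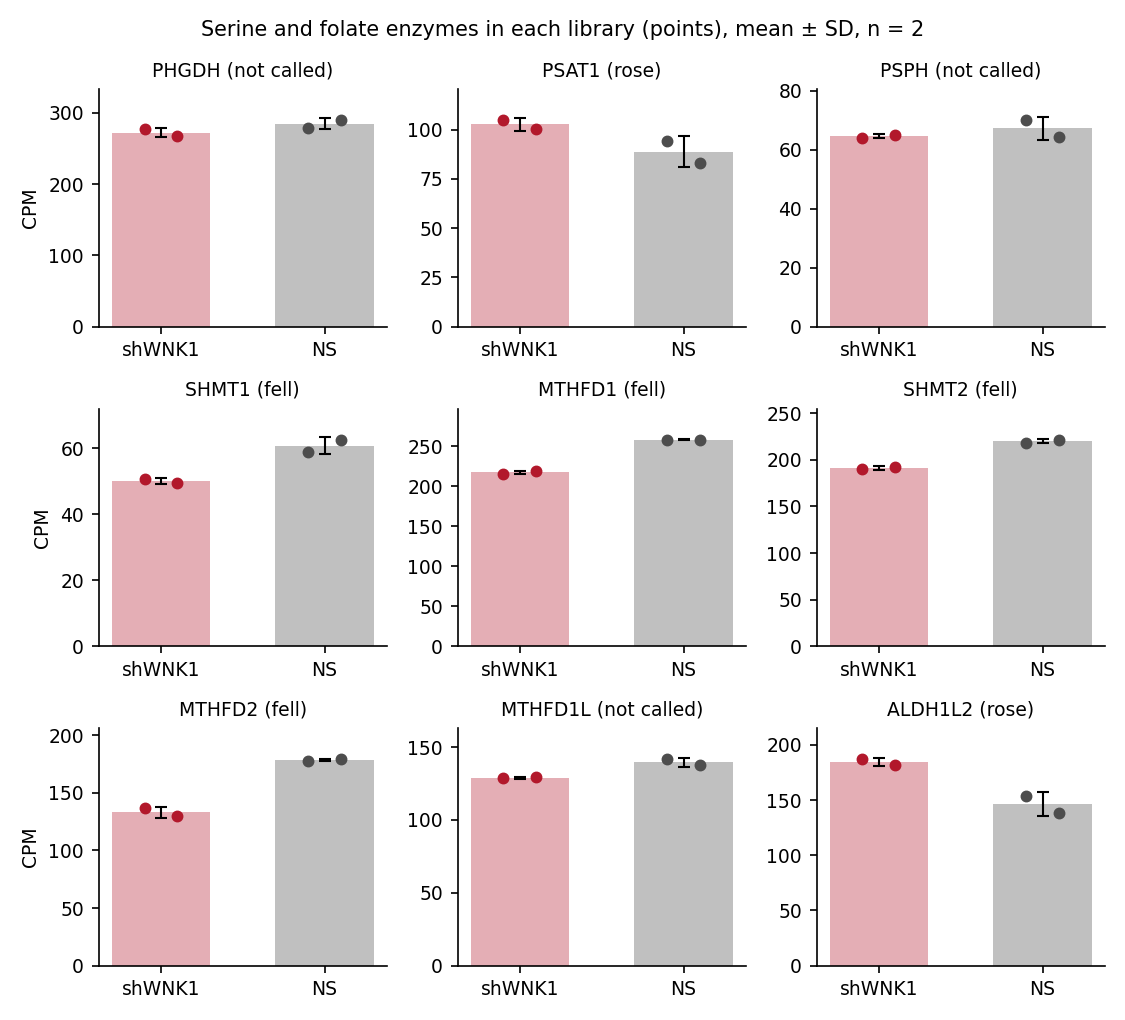
Level of each enzyme in CPM (y axis, from 0) in the shWNK1 and NS libraries; points are libraries, bars the mean and whiskers the SD (n = 2 each). MTHFD2 stands at 137 and 129.6 CPM in shWNK1 cells against 178 and 179 CPM in NS cells, ALDH1L2 is higher in both shWNK1 libraries, and the points of PSPH overlap.

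The upstream regions of 3 members with different outcomes are shown: PSAT1 rose, MTHFD2 had the largest fall of the 9, and MTHFD1L was not called. PSAT1 and MTHFD2 hold only CCAAT boxes, and MTHFD1L holds all 3 elements searched. Each is the RefSeq window from 250 bases before to 50 bases after the gene's start (GRCh38.p14, plus strand), at chr9:78296875-78297174 for PSAT1, chr2:74198365-74198664 for MTHFD2 and chr6:150866236-150866535 for MTHFD1L. Capitals mark matches, on either strand, to the amino acid response element TGATGNAA, the MYC-type E-box CACGTG or the CCAAT box.
PSAT1: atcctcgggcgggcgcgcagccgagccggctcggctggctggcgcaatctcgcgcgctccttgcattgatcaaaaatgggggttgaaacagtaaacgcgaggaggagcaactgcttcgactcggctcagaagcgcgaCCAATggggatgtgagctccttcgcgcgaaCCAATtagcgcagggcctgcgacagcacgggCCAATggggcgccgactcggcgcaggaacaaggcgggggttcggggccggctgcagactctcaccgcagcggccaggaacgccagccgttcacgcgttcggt
MTHFD2: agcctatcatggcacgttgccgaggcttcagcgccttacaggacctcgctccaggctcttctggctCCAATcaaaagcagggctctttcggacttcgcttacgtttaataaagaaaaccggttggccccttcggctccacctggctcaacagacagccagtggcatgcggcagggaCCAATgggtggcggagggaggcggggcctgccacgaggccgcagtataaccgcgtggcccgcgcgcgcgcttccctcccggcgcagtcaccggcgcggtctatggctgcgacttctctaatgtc
MTHFD1L: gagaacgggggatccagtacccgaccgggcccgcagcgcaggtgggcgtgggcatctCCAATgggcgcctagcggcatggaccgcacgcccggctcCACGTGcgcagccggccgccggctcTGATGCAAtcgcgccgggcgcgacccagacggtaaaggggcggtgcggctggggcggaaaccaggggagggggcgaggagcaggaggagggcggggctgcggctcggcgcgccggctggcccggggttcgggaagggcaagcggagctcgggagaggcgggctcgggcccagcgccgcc

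RefSeq windows were matched for 6 members: PHGDH, PSAT1, SHMT1, MTHFD1, MTHFD2 and MTHFD1L. CCAAT occurred in 6 of these 6 windows, against 35.7% of 27305 windows of the same length. PSAT1 held 3 copies, starting 113, 83 and 52 bases before its start. CACGTG occurred in MTHFD1 and MTHFD1L and in 7.43% of all windows, and TGATGNAA occurred in MTHFD1L alone among the 6 and in 3.67% of all windows. These are matches of letters, with no measurement of binding, and the start used by JJN3 cells may differ from the RefSeq start.

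In the serine synthesis branch the middle step was the one called. PSAT1 (ENSG00000135069.14; chromosome 9, 78297125 to 78330093, plus strand, hg38), the phosphoserine aminotransferase, had 105 and 100.5 CPM in shWNK1 cells, against 94.3 and 83.3 CPM in NS cells. Both shWNK1 libraries were above both NS libraries, and the NS libraries differed more from each other than the shWNK1 libraries did. PSAT1 rose to 103 ± 3.15 CPM, against 88.8 ± 7.83 CPM in NS cells (log2 fold change 0.21, SE 0.075, edgeR adjusted p = 0.0268). The call on PSAT1 was lost without shWNK1 replicate 1 (adjusted p = 0.248), shWNK1 replicate 2 (0.12) or NS replicate 2 (0.192), and with DESeq2 (0.0802); without NS replicate 2 the log2 fold change was 0.13.

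PHGDH (ENSG00000092621.12; chromosome 1, 119648411 to 119744226, plus strand), the dehydrogenase that commits carbon to serine, had 277 and 268 CPM in shWNK1 cells, against 279 and 290 CPM in NS cells. The shWNK1 libraries were the lower ones, but by less than the test could separate (log2 fold change -0.06, SE 0.059, edgeR adjusted p = 0.420). PSPH (ENSG00000146733.14; chromosome 7, 56011051 to 56051604, minus strand), the phosphatase of the last step, had 64.1 and 65.2 CPM in shWNK1 cells, against 70.1 and 64.4 CPM in NS cells, and the groups overlapped (log2 fold change -0.06, SE 0.082, edgeR adjusted p = 0.626). Together the 3 genes summed to 446 and 433 CPM in shWNK1 cells and to 443 and 437 CPM in NS cells.

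Both serine hydroxymethyltransferases fell, by similar amounts. SHMT1 (ENSG00000176974.20; chromosome 17, 18327860 to 18363563, minus strand), the cytosolic enzyme, had 50.6 and 49.4 CPM in shWNK1 cells, against 58.9 and 62.6 CPM in NS cells (log2 fold change -0.28, SE 0.086, edgeR adjusted p = 0.00909). SHMT2 (ENSG00000182199.11; chromosome 12, 57229573 to 57234935, plus strand), the mitochondrial enzyme, had 189.9 and 192 CPM in shWNK1 cells, against 219 and 222 CPM in NS cells (log2 fold change -0.20, SE 0.060, edgeR adjusted p = 0.00716). In neither gene did the groups overlap. Both calls were lost when an shWNK1 library was left out: the adjusted p was 0.0817 without replicate 1 and 0.112 without replicate 2 for SHMT1, and 0.146 and 0.0909 for SHMT2, while the log2 fold changes in these fits were -0.29 and -0.27 for SHMT1 and -0.19 and -0.22 for SHMT2.

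MTHFD1 (ENSG00000100714.17; chromosome 14, 64388031 to 64463457, plus strand), the trifunctional cytosolic enzyme, had 216 and 219 CPM in shWNK1 cells, against 259 and 258 CPM in NS cells. The gap between the groups was far wider than the spread within either, and MTHFD1 fell by 15.8% (log2 fold change -0.25, SE 0.059, edgeR adjusted p = 0.001; 0.0646 without shWNK1 replicate 1). With SHMT1 it summed to 266 and 268 CPM in shWNK1 cells and to 317 and 321 CPM in NS cells.

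Among the mitochondrial enzymes MTHFD2 and ALDH1L2 moved in opposite directions. MTHFD2 (ENSG00000065911.12; chromosome 2, 74198610 to 74217565, plus strand), the dehydrogenase and cyclohydrolase of mitochondria, had 137 and 129.6 CPM in shWNK1 cells, against 178 and 179 CPM in NS cells, with no overlap. It fell to 133 ± 4.88 CPM, against 179 ± 1.08 CPM in NS cells (SD, n = 2 each), a drop of 1.34-fold (log2 fold change -0.43, SE 0.064, edgeR adjusted p = 2.2e-06). ALDH1L2 (ENSG00000136010.14; chromosome 12, 105019784 to 105107643, minus strand), the mitochondrial formyltetrahydrofolate dehydrogenase, had 187 and 182 CPM in shWNK1 cells, against 154 and 139 CPM in NS cells, again with no overlap. It rose 1.26-fold to 185 ± 3.81 CPM, against 146 ± 10.8 CPM in NS cells (log2 fold change 0.34, SE 0.065, edgeR adjusted p = 9.9e-05). MTHFD2 and ALDH1L2 were the only members called under each of the 12 alternatives run, with log2 fold changes of -0.46 to -0.39 and of 0.27 to 0.41.

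MTHFD1L (ENSG00000120254.15; chromosome 6, 150865549 to 151101887, plus strand), the mitochondrial formate-releasing synthetase, had 128 and 129.5 CPM in shWNK1 cells, against 142 and 137 CPM in NS cells. The shWNK1 libraries were lower without overlap, but the test did not call it (log2 fold change -0.11, SE 0.065, edgeR adjusted p = 0.174). The 4 mitochondrial enzymes summed to 642 and 633 CPM in shWNK1 cells and to 692 and 677 CPM in NS cells.

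**Figure D2:**
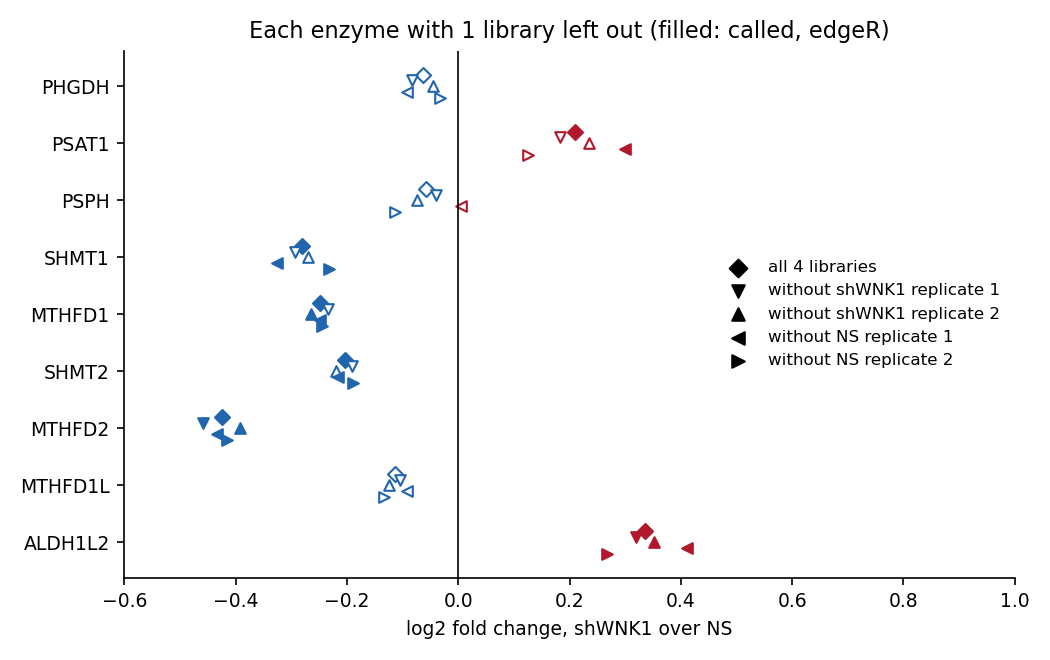
Log2 fold change of each enzyme, shWNK1 over NS (x axis), with all 4 libraries (diamonds) and with 1 library left out (triangles); red is above and blue below 0, and filled symbols were called by edgeR. MTHFD2 and ALDH1L2 stay filled in all 5 fits, whereas PSAT1 is open in 3 of the 4 reduced fits and PSPH crosses 0 without NS replicate 1.

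Ratios between 2 enzymes in the same library do not depend on library scaling. Levels are taken per kb of the exon length in the table. The size of a ratio depends on that length, while its log2 difference between groups does not. With the principal transcript lengths used further below, PSAT1 stood under PHGDH, at 46.9 against 105 CPM per kb in shWNK1 cells. ALDH1L2 over MTHFD2, the outlet to carbon dioxide over the step towards formate, was 0.697 and 0.713 in shWNK1 cells and 0.439 and 0.392 in NS cells, a log2 difference of 0.76. ALDH1L2 had the largest rise and MTHFD2 the largest fall among the enzymes, so the width of this ratio follows from their own changes. PSAT1 over PHGDH was 1.59 and 1.57 in shWNK1 cells and 1.41 and 1.20 in NS cells (log2 difference 0.28). MTHFD2 over MTHFD1L was 1.11 and 1.04 in shWNK1 cells and 1.31 and 1.36 in NS cells (log2 difference -0.31). SHMT2 over SHMT1, the mitochondrial over the cytosolic enzyme, was 5.95 and 6.17 in shWNK1 cells and 5.89 and 5.62 in NS cells, a log2 difference of 0.08. The groups did not overlap in any of these 4 ratios, and with 2 libraries against 2 an exact two-sided permutation test cannot give a p below 0.333, the value each reached.

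**Figure D3:**
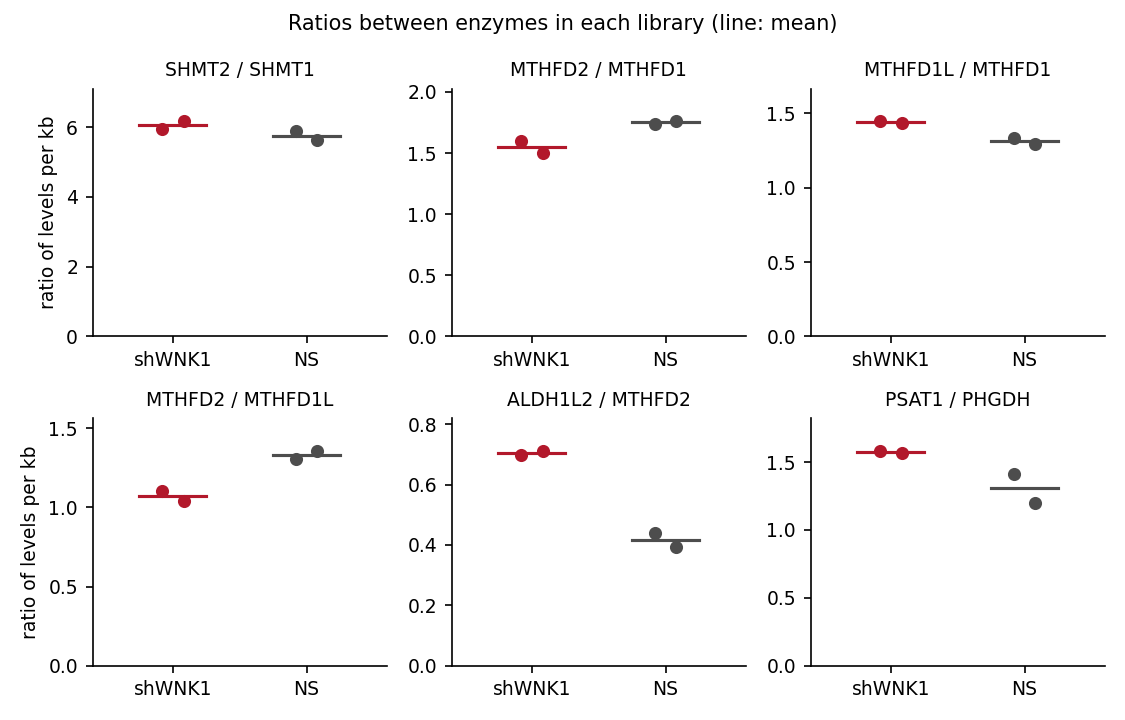
Ratio of levels per kb between pairs of enzymes (y axis, from 0) in each shWNK1 and NS library (points) with the group mean (line). ALDH1L2 over MTHFD2 averages 0.705 in shWNK1 cells and 0.416 in NS cells, the widest of the 6 drawn on the log2 scale. That follows from setting the enzyme with the largest rise over the one with the largest fall. SHMT2 over SHMT1 differs least on that scale, 6.06 in shWNK1 cells against 5.75 in NS cells.

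How the enzymes rank against each other depends on the length used. Neither length leaves out bases shared with other genes, which are most frequent in MTHFD2. Per kb of all annotated exons, PSAT1 (46.6 ± 1.43 CPM per kb) and SHMT2 (41.6 ± 0.389) led in shWNK1 cells, and SHMT2 (48.0 ± 0.512) and PSAT1 (40.3 ± 3.55) in NS cells. Per kb of the principal transcript (GENCODE v29, an alternative added after the data were seen), PHGDH led, with 105 ± 2.45 CPM per kb in shWNK1 cells and 110.0 ± 2.96 in NS cells, then SHMT2 and MTHFD1. On this scale MTHFD2 and PSPH did not differ beyond their spread in shWNK1 cells, nor PSAT1 and MTHFD2 in NS cells; on the table's lengths the libraries of neighbouring enzymes were separate throughout. MTHFD2 stood 1 place lower and ALDH1L2 1 place higher in shWNK1 cells than in NS cells on both scales. SHMT1 was the lowest of the 9 in shWNK1 cells on both scales.

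Counting ignored strand, and its command line holds no option to count a read that falls on several genes. Exons of other genes covered 33.6% of the exon bases of MTHFD2, mostly those of SLC4A5 on the opposite strand, which had 1 and 0 counts under shWNK1 and 0 and 2 under NS. Without that option, a read over shared bases was counted for neither gene, however few counts the other gene had. The level per kb of MTHFD2 can therefore be too low, which also bears on its rank and the size of its ratios. The extent was not tested. The overlap was 15.7% for MTHFD1, 8.38% for SHMT2, 3.71% for SHMT1, 2.91% for ALDH1L2 and 0 for PHGDH, PSAT1, PSPH and MTHFD1L. Some opposite-strand neighbours were well counted. SMCR8, over SHMT1, had 1154 and 1313 counts under shWNK1 and 1064 and 989 under NS. Over ALDH1L2, WASHC4 had 2288 and 2588 against 1999 and 1792, and NOPCHAP1 641 and 883 against 1080 and 924. ZBTB25, over MTHFD1, had 343 and 407 against 338 and 295. Their effect on the members' counts was not tested. Of 14 annotated pseudogenes named after members, 4 had any counts, 28 in all libraries together, which is 0.0280% of the members' 100126 counts. Reads that fit a member and a pseudogene equally well would have been lost to the mapping quality minimum, so levels of PSAT1, PSPH, SHMT1, MTHFD1 and MTHFD2, which have such copies, are less certain.

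Close relatives of MTHFD2 and ALDH1L2 were counted far less often. MTHFD2L, the second mitochondrial dehydrogenase of the family, had 14.6 and 11.5 CPM in shWNK1 cells, against 10.8 and 13.9 CPM in NS cells (log2 fold change 0.07, SE 0.166, edgeR adjusted p = 0.772). ALDH1L1, the cytosolic counterpart of ALDH1L2, had 3.67 and 2.92 CPM in shWNK1 cells, against 1.76 and 2.36 CPM in NS cells, and was not called (log2 fold change 0.67, SE 0.346, edgeR adjusted p = 0.129).

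Of 12 tested genes for folate uptake, retention and interconversion, 1 rose, 2 fell and 9 were not called, with a median log2 fold change of 0.02. That is 25% called, against 38.8% of all tested genes. Some of those not called had few counts, such as MTHFS with 62 and 46 under shWNK1 and 38 and 50 under NS. The reduced folate carrier SLC19A1 (log2 fold change -0.33, SE 0.079) and FPGS, which retains folates in the cell by adding glutamates (-0.30, SE 0.082), fell; the call on FPGS was lost without shWNK1 replicate 2 (adjusted p = 0.141), which left 1 fall.

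The lists for purine and thymidylate synthesis, pathways that use folate-bound carbon at some of their steps, held falls and no rises. Of 13 genes of purine nucleotide synthesis 9 fell, 0 rose and 4 were not called, with a median log2 fold change of -0.36. The ring-building enzymes PPAT, GART, PFAS, PAICS and ATIC fell, and ADSL was not called. PRPS1, PRPS2, IMPDH1 and IMPDH2, which act before or after ring building, fell too. GMPS, ADSS1 and ADSS2, which act after it, were not called. Of all tested genes 20.2% fell, and 35.6% of those counted at least as often as the least counted of the 9 enzymes. ADSL and ADSS1 were counted less often than that. PPAT, the first committed enzyme, fell to 55.6 ± 5.32 CPM, against 126 ± 5.59 CPM in NS cells (log2 fold change -1.18, SE 0.079, edgeR adjusted p = 1.3e-13). ATIC and GART, the enzymes that take up formyl groups from folate, fell by 0.75 (SE 0.063) and 0.46 (SE 0.063) on the log2 scale. Of 7 thymidylate synthesis genes 5 fell and 0 rose (median -0.29; 3 falls without shWNK1 replicate 2). Thymidylate synthase, TYMS, which consumes methylene-folate, had 93.0 and 89.1 CPM in shWNK1 cells, against 151 and 159 CPM in NS cells (log2 fold change -0.77, SE 0.068, edgeR adjusted p = 7.3e-11). The ribonucleotide reductase subunit RRM2 (-0.46) and the dUTPase DUT (-0.38) fell as well.

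Transporters of serine and glycine went both ways, with 5 rises and 4 falls among 11 tested and a median log2 fold change of 0.05. That is 81.8% called, against 38.8% of all tested genes. The share was 57.5% among genes with a mean of at least 990 counts. SFXN2, SFXN3, SLC6A9, SLC25A38 and SLC36A1 did not reach that depth. The neutral amino acid transporter SLC38A2 rose by 1.21 on the log2 scale (SE 0.060) and the serine and alanine exchanger SLC1A4 by 0.50 (SE 0.059), while SLC38A5 fell by 0.62 and the lysosomal exporter SLC36A1 by 0.59. The sideroflexins, carriers of the inner mitochondrial membrane, divided: SFXN1, a mitochondrial serine carrier, had 162 and 161 CPM in shWNK1 cells, against 229 and 241 CPM in NS cells (log2 fold change -0.54, SE 0.062, edgeR adjusted p = 1.3e-08), and SFXN2 had 24.0 and 24.2 CPM in shWNK1 cells, against 14.7 and 12.3 CPM in NS cells (log2 fold change 0.83, SE 0.136, edgeR adjusted p = 7.8e-06). Of 9 tested genes for glycine cleavage and breakdown 1 rose, DLD (0.29, SE 0.061), a subunit that other mitochondrial dehydrogenase complexes share, and 8 were not called; without NS replicate 2 there were 2 rises. With all libraries 11.1% of the glycine cleavage list was called. GLDC, the decarboxylase specific to glycine cleavage, had 12.3 and 15.1 CPM in shWNK1 cells, against 14.3 and 17.0 CPM in NS cells, with overlap (log2 fold change -0.18, edgeR adjusted p = 0.367). AMT, another subunit, had 7 and 5 counts under shWNK1 and 7 and 2 under NS and was too low to test.

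In the methionine cycle and transsulfuration 2 of 9 tested genes rose and 3 fell. That is 55.6% called, against 38.8% of all tested genes. The share was 57.5% among genes with a mean of at least 990 counts, which CTH and CBS did not reach. CTH, which makes cysteine from cystathionine, had 25.1 and 25.3 CPM in shWNK1 cells, against 14.3 and 13.7 CPM in NS cells (log2 fold change 0.85, SE 0.130, edgeR adjusted p = 3.0e-06), and AHCYL2 rose by 0.34. MAT2A, which makes S-adenosylmethionine, fell by 0.39 and the methionine synthase reductase MTRR by 0.30 (edgeR adjusted p = 0.0706 without shWNK1 replicate 1). MAT2B, the regulatory subunit that partners MAT2A, fell by 0.22 (0.339 without shWNK1 replicate 2). In glutathione synthesis 3 of 7 genes rose, among them CHAC1 (log2 fold change 1.56), which degrades glutathione, and the synthetase GSS (0.39), and 2 fell (71.4% called). Those 2, CHAC2 (-0.33) and SLC3A2 (-0.17), lost their calls without shWNK1 replicate 2 (adjusted p = 0.587 and 0.161); without shWNK1 replicate 1, without NS replicate 2 or with DESeq2 there was 1 fall, and with upper-quartile factors 0. The third rise, of GCLM (0.23), was lost without shWNK1 replicate 1 (0.124) or replicate 2 (0.0564).

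In the list of glycolytic steps around phosphoglycerate 33.3% of 6 tested genes were called, against 38.8% of all tested genes. At this branch point PGAM1, which competes with PHGDH for phosphoglycerate, fell to 364 ± 9.60 CPM, against 471 ± 6.87 CPM in NS cells (log2 fold change -0.37, SE 0.057, edgeR adjusted p = 3.2e-06). ENO1 fell by 0.26 (adjusted p = 0.0781 without shWNK1 replicate 1), and 0 of the 6 tested genes of that list rose. There was 1 rise without NS replicate 1, without NS replicate 2, with limma-voom or with upper-quartile factors, and 1 fall without shWNK1 replicate 1.

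**Figure D4:**
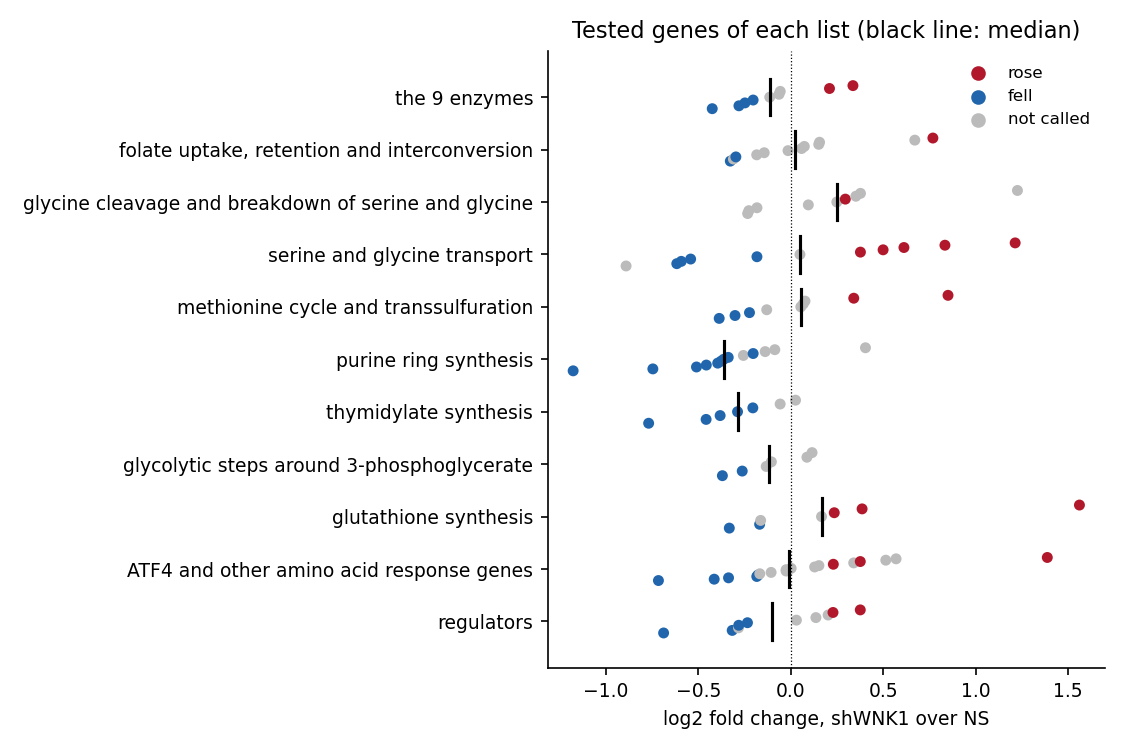
Log2 fold change, shWNK1 over NS (x axis), of each tested gene of the 9 enzymes and of 10 lists of related genes (rows); red genes rose, blue genes fell, grey genes were not called, and black lines are medians. The purine list has 9 blue and 0 red points, and the transport list has 5 red and 4 blue points.

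Regulators linked to these genes moved in different directions. Of those tested 60% were called, against 38.8% of all tested genes. Among genes with a mean of at least 990 counts, which KDM4C and EIF2AK3 did not reach, 57.5% were called. ATF4 had 406 and 409 CPM in shWNK1 cells, against 305 and 323 CPM in NS cells, and rose (log2 fold change 0.38, SE 0.058, edgeR adjusted p = 3.3e-06). MYC, which also activates serine and nucleotide synthesis genes, had 453 and 485 CPM in shWNK1 cells, against 756 and 756 CPM in NS cells, and fell by 0.69 (SE 0.057). NFE2L2, which drives antioxidant genes, had 80.7 and 74.7 CPM in shWNK1 cells, against 74.3 and 67.1 CPM in NS cells, and was not called (edgeR adjusted p = 0.193; 0.0389 without NS replicate 1). Of 18 tested genes of the ATF4 and amino acid response 3 rose, 5 fell and 10 were not called, with a median log2 fold change of -0.01; without shWNK1 replicate 1 there were 3 falls, and likewise without replicate 2. With all libraries 44.4% of these 18 genes were called, against 38.8% of all tested genes. SESN2 rose by 1.39, TRIB3 fell by 0.72, and ALDH18A1 (-0.41) and EIF4EBP1 (-0.34) fell. PCK2 rose by 0.23, a call lost without shWNK1 replicate 1 (adjusted p = 0.276), shWNK1 replicate 2 (0.117) or NS replicate 1 (0.0920), with DESeq2 (0.102) and with no filter (0.0714). Of 10 tested regulators 2 rose and 4 fell, among them EIF2S1 (-0.32), the initiation factor whose phosphorylation raises ATF4 translation, and the histone methyltransferase EHMT2 (-0.28; adjusted p = 0.0631 without shWNK1 replicate 1, where 2 fell). The amino acid sensing kinase EIF2AK4 rose by 0.23 (0.308 without shWNK1 replicate 2, where 1 rose).

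The 6-base word AGTATC was examined in annotated 3′ UTRs because earlier results on these libraries found it more often in falling genes, so it is no independent evidence. It was present in 35.4% of 2806 falling genes searched, 19.9% of 2489 rising genes and 23.1% of 6591 genes not called (any protein-coding transcript of GENCODE v29). The shares were not adjusted for the length of the 3′ UTR. Among the members it was found in MTHFD2, which fell, and in ALDH1L2, which rose, and in 0 of the other 7. The longest 3′ UTR had 3323 bases in MTHFD2 and 4634 in ALDH1L2. It had 3522 bases in MTHFD1 and 353 to 1007 in the remaining members. In MTHFD2 all 3 transcripts searched held it, and in ALDH1L2 1 of 2. The first site in the longest 3′ UTR of each is shown with the word in capitals.
MTHFD2: agggagcattccAGTATCatgcagggtcct
ALDH1L2: gagcctaggttgAGTATCtataaaatgaaa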

How the data were processed

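RNA-seq counts of 4 JJN3 libraries were analysed. The authors deposited unnormalised counts for each gene, produced by featureCounts 2.0.0 on the GENCODE v34 annotation, strand setting 0, paired fragments and mapping quality of at least 20, per the file headers. The submitters' processing notes name Trimmomatic, STAR and the build hg38. The deposited exon length of each gene served for levels per kb. Of 60728 genes listed, 1 gene broken over 3 lines and 45 Y copies of pseudoautosomal genes were left out, and 60369 identifiers matched a symbol.

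Counts of the 14864 genes kept by filterByExpr were scaled by TMM and tested with edgeR 4.0.16 in R 4.3.3 (glmQLFit, robust; glmQLFTest, two-sided; 2 residual degrees of freedom) with Benjamini-Hochberg adjustment over all of them. SE comes from the quasi-likelihood F statistic. At these depths 3 counts correspond to 0.146 to 0.177 CPM. The members and lists were chosen with earlier results of these data known. Genes named are the 9 members and their copies, WNK1, ATF4, MYC, NFE2L2, and up to 3 rising and 3 falling called genes of each list by smallest p. GLDC and AMT, and the markers, were named after their values were seen. Some genes that the rule names are not reported here. Alternatives were DESeq2 1.42.0, limma-voom (limma 3.58.1), RLE and upper-quartile factors, no filter, a minimum of 1 CPM in at least 2 libraries, dropping genes of the immunoglobulin loci and of the mitochondrial genome, a block for replicate number, and leaving out each library. The fits were also run on simulated data, in which far fewer genes changed than were called here. No result rests on that run.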

Additional observations from a re-analysis of the deposited data

How the results depend on the processing

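The direction of all 9 enzymes was kept under all 12 alternatives, except that PSPH, not called, stood at 0.00425 without NS replicate 1. With DESeq2 there was 1 rise among the 9, since PSAT1 (log2 fold change 0.21) lost its call, and no other alternative that kept all 4 libraries changed a call among them. With a library left out, rises among the 9 numbered 1 to 2 and falls 1 to 4, and log2 fold changes ran from 0.13 to 0.30 for PSAT1, -0.33 to -0.23 for SHMT1, -0.22 to -0.19 for SHMT2, -0.26 to -0.23 for MTHFD1 and -0.11 to 0.00425 for PSPH. Over all genes, rises numbered 1632 to 2778 and falls 1964 to 3024. Fits without 1 library leave 1 sample in a group, which is assumed to vary like the others, and have fewer residual degrees of freedom. The deposited names of same-numbered libraries share a letter, A or B. Same-numbered replicates did not deviate together (correlation 0.00126 over 14864 genes), so the numbers were not taken to pair the samples. That correlation weights genes of low and high counts alike, so it cannot exclude pairing. With the replicate block MTHFD2 was at -0.43 and ALDH1L2 at 0.34, with 2 rises and 4 falls among the 9 as before; outside the 9 it ended the calls on CHAC2 (adjusted p = 0.0657), leaving 1 fall in glutathione synthesis, and on PCK2 (0.0502). MTHFD2L, not called, ran from -0.10 to 0.26 with a library left out, and was below 0 without shWNK1 replicate 1 (-0.10) and without NS replicate 1 (-0.10). With principal transcript lengths 3 members kept their place in the shWNK1 order of levels and 0 in the NS order; changes between groups do not depend on length.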

Other observations

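ASNS, the asparagine synthetase and a known ATF4 target, was low in these cells, with 1.83 and 2.09 CPM in shWNK1 libraries and 1.82 and 0.827 CPM in NS libraries, and was not called (edgeR adjusted p = 0.355). SLC25A32, the mitochondrial folate carrier, was also low, at 1.37 ± 0.0847 CPM in shWNK1 cells and 1.56 ± 0.0329 CPM in NS cells (SD, n = 2 each). Both were named after their values were seen.

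MTHFD2 had the smallest p among the members, and by distance over the 4 libraries' gene-centred log2 CPM the genes most like it among 14863 others were PIP4K2B (distance 0.0161), ALDH18A1 (0.0246) and ARSK (0.0268), where the median gene was at 0.552. They were picked for the smallest distances, so lying far below the median follows from the choice and the distances only describe. ALDH18A1, the first enzyme of proline synthesis, had 151 and 146 CPM in shWNK1 cells, against 196 and 200 CPM in NS cells.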
